A study of Rattus norvegicus with 47 samples.

Results

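Whole-blood gene expression was compared between female rats with an extreme and female rats with a minimal behavioural response to the scent of a predator. The comparison took 16 of the 47 arrays of the series, namely the 8 female arrays that the labels place in the extreme class and the 8 that they place in the minimal class. All 16 animals were adult female Sprague Dawley rats, an outbred laboratory stock, and all had been exposed to the scent. Exposure was thus common to both classes, and no unexposed rat entered either class mean. The question was which blood transcripts separate animals that reacted strongly from animals that reacted little to the same threat. The labels used here do not state how behaviour was scored or how long after exposure blood was drawn. Each of these arrays carried RNA of 1 rat. The rat numbers ran from 11 to 27 in the minimal class and from 35 to 45 in the extreme class, so class and rat number cannot be told apart.

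Predator scent is a natural threat for rats, and it activates the adrenal cortex, which in this species releases corticosterone. Corticosterone binds the glucocorticoid receptor, a transcription factor that raises the transcription of genes such as Fkbp5, Klf9 and Per1 and lowers that of many inflammatory genes. Glucocorticoids also move white cells between blood and tissue, and a whole-blood profile depends both on which cells circulate and on what each cell transcribes.

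RNA was stabilised in the collection tube, most globin transcripts were removed, and biotin-labelled cRNA was hybridised to 1-colour Illumina rat bead arrays of 22523 probes. Values below are normalized log2 intensities, and a level is never compared between probes. A model of all 6 groups of the series, with 46 usable arrays, tested the 9416 probes that were detected on at least 7 of those arrays. Arrays of unexposed controls and of males thereby entered the normalization and the pooled spread, but not the class means. A gene is said to have risen or fallen, or to be called, where the adjusted p of limma was below 0.05. Each of the 16 female arrays has its own rat identifier in the labels. Among the males, whose arrays enter the pooled spread, 6 titles of exposed rats repeat the number of a control, and the identifiers of the controls then carry a C in front. As a check of the tissue, 20 of 25 erythroid, 15 of 20 T cell and 13 of 17 platelet markers on the array were detected on all 16 arrays. Of 25 neutrophil markers, 10 were detected on all 16 and 4 on none, namely S100a9, Cxcr1, Ltf and Elane. Other lists were less widely detected, with 4 of 11 monocyte, 4 of 14 B cell and 6 of 13 NK and cytotoxic markers on all 16. The same held for 3 of 15 eosinophil, basophil and mast cell markers and for 3 of 14 skeletal muscle markers.

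Array brightness differed widely within both classes. The 95th percentile of raw intensity had its lowest, median and highest values at 292, 590 and 780 in the minimal class and at 247, 439 and 914 in the extreme class, a difference that did not pass (two-sided exact permutation test, p = 0.313). Detected probes numbered 6579, 7332.5 and 8059 in the minimal class and 5921, 6742 and 7791 in the extreme class (exact permutation test, p = 0.0499). Of the 5 arrays below 350 in brightness, 4 were of the extreme class (replicates 1 to 4) and 1 was of the minimal class (replicate 7).

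**Figure D1:**
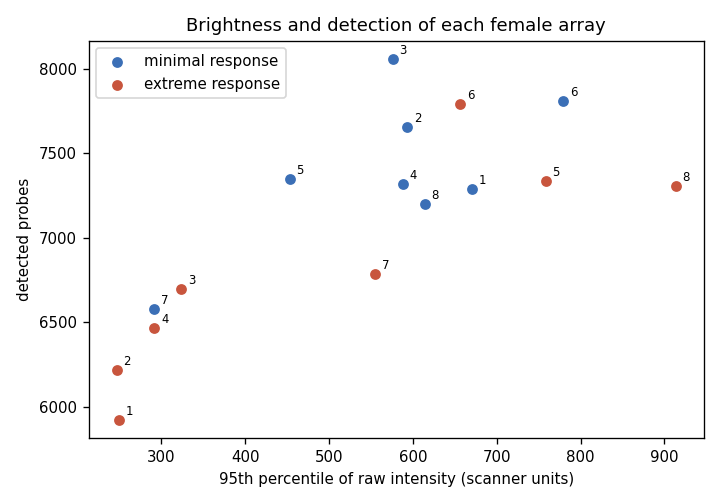
Number of detected probes (y axis) against the 95th percentile of raw intensity in scanner units (x axis) for the 16 female arrays, with 1 point per rat and its replicate number. Extreme replicates 1 to 4 and minimal replicate 7 lie at the dim end, between 247 and 324, and extreme replicate 8 is the brightest array at 914.

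The classes differed in 32 of 9416 probes (0.34%), of which 11 were higher in the extreme class (0.117%) and 21 lower (0.223%). The classes did not overlap at all for 10 of the 9416 probes (0.106%), with 5 higher (0.0531%) and 5 lower (0.0531%) in the extreme class, and 2 of these were among the called. With the 16 arrays normalized and fitted alone, 49 of 7146 probes were called (0.686%), 15 higher and 34 lower. In all, 19 probes were called in both fits, which is 59.4% of the 32 and 38.8% of the 49. Of the 32 probes, 26 carried a gene symbol, and the 6 without a symbol comprised 5 higher and 1 lower. The median difference over all tested probes was −0.01, and the median standard error (SE) of a difference was 0.152. Fewer cells of a type and less RNA per cell cannot be told apart in whole blood.

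Genes induced by glucocorticoids gave 3 of the 11 rises. Klf9, a transcription factor that corticosterone induces in many tissues, had its lowest, median and highest log2 intensity at 6.47, 6.94 and 7.40 in the minimal class and at 7.11, 8.26 and 8.72 in the extreme class. It was 2.36-fold higher in the extreme class (log2 difference 1.24 ± 0.20 SE, n = 8 rats a class, adjusted p = 0.00138 from limma), the smallest adjusted p of the comparison. In 7 of 8 extreme rats Klf9 lay above the whole minimal range, and extreme replicate 8, at 7.11, lay inside it. The promoter window of Klf9 is shown because this gene led the comparison. It is the RefSeq sequence of chr1:230126396-230126695 on build GRCr8, from 250 bases before to 50 after the start of the gene, and no letter is in capitals because neither the single site of the glucocorticoid receptor (AGAACA, searched on both strands) nor its full paired element (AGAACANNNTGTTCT) was found in it.
Klf9: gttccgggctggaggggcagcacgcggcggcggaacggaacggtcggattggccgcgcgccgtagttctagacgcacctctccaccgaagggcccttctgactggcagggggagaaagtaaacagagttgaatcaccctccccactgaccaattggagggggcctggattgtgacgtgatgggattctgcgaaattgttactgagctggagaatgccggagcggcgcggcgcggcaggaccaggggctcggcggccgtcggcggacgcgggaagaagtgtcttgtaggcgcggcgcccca
The single site occurred in 20.7% of the 33469 RefSeq windows of this length and the full element in 0.0149%. The windows of Fkbp5, Pik3ip1 and Per1 did not hold either. These letters may lie outside such windows.

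Fkbp5 encodes a cochaperone that lowers the hormone affinity of the glucocorticoid receptor. Its values were 6.80, 7.59 and 8.00 in the minimal class against 7.47, 8.21 and 8.51 in the extreme class, a 1.57-fold rise (0.65 ± 0.16, adjusted p = 0.0495). Again 7 of 8 extreme rats lay above all minimal rats, and the exception was replicate 8. Pik3ip1, an inhibitor of phosphoinositide 3-kinase, had values of 8.03, 8.35 and 8.51 against 7.92, 9.21 and 9.43 (0.73 ± 0.18, adjusted p = 0.0474), with the same 7 rats above and the same rat below. Fkbp5 and Pik3ip1 were not called in the fit of the 16 arrays alone (adjusted p = 0.0648 and 0.062). Per1, a clock gene with a glucocorticoid-responsive promoter, had values of 5.48, 5.66 and 5.94 against 5.61, 6.40 and 6.95. Its difference of 0.69 ± 0.19 missed the threshold in the fit of 46 arrays (adjusted p = 0.0763) and passed it in the fit of 16 (adjusted p = 0.0393).

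The direction was shared by most but not all of the list of glucocorticoid-induced genes, and few members were called. Of its 17 tested members, 12 had a difference above 0 (70.6%, against 48.3% of all probes). Among the 17, 3 were called higher, 0 lower and 14 were not called, against 0.117% of all probes called higher. At an unadjusted p below 0.05, 6 members were higher and 3 lower, against 5.04% and 7.23% of all probes. Tsc22d3, whose product (GILZ) mediates anti-inflammatory glucocorticoid effects, showed a difference of 0.29 ± 0.15 (adjusted p = 0.437). Its minimal values, from 9.99 to 10.46, lay inside the extreme range of 9.75 to 10.95, of which the low end was replicate 8. The other extreme rats ran from 10.18 to 10.95, and 5 of 8 extreme rats lay above all minimal rats. Sgk1, a kinase gene induced by corticosteroids, differed by −0.34 ± 0.16 (adjusted p = 0.361). Ddit4, a stress-induced inhibitor of mTOR, differed by 1.01 ± 0.31 (adjusted p = 0.129), and its minimal values alone spread from 5.62 to 7.86. The median over the 17 members was 0.18, but −0.05 under 75th percentile scaling in place of quantile normalization. Nr3c1, the gene of the receptor itself, was detected on too few arrays to be tested.

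**Figure D2:**
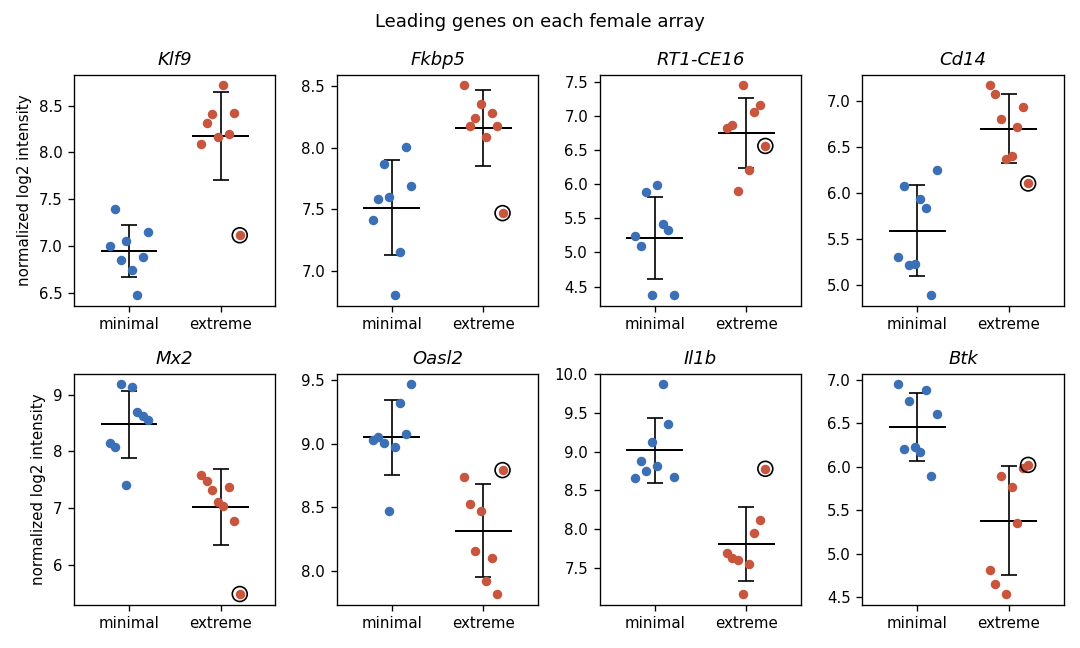
Normalized log2 intensity (y axes, which do not start at 0) of 8 leading genes on each female array. Points are rats, bars are the mean and SD of 8 rats, and the ring marks extreme replicate 8, which lies beside the minimal rats for Klf9 (7.11) and Fkbp5 (7.47) and below every other rat for Mx2 (5.48).

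With background correction, the largest rise was that of RT1-CE16, a gene of the class I region of the rat major histocompatibility complex. Its values were 4.37, 5.29 and 5.99 in the minimal class and 5.90, 6.85 and 7.45 in the extreme class, a 2.91-fold difference (1.54 ± 0.33, adjusted p = 0.0218). The probe was detected on 6 minimal and 8 extreme arrays, and 7 of 8 extreme rats lay above all minimal rats. Rat class I genes are close copies of each other and vary between animals of an outbred stock, so which copies bound the probe is uncertain. Without background correction the difference was 0.69, below the 0.84 of Klf9 and the 1.07 of Cd82, a tetraspanin gene. Of 23 class I pathway genes tested, this was the only one called, against 0.117% of all probes called higher. RT1-A3 and RT1-CE7, other class I genes, differed by 0.48 ± 0.16 (adjusted p = 0.17) and 0.45 ± 0.18 (adjusted p = 0.259), and the peptide transporter gene Tap1 by −0.41 ± 0.12 (adjusted p = 0.121).

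Cd14, the monocyte coreceptor for bacterial lipopolysaccharide, rose 2.15-fold. Its values were 4.89, 5.58 and 6.25 in the minimal class and 6.11, 6.76 and 7.17 in the extreme class (1.11 ± 0.22, adjusted p = 0.0112). All 8 extreme rats were above the minimal mean, and 7 were above the highest minimal rat. Nt5dc2, a gene of the 5′-nucleotidase domain family, had values of 4.75, 4.93 and 5.23 against 5.24, 5.52 and 6.52. It was the called gene with a symbol whose classes did not overlap (0.71 ± 0.16, adjusted p = 0.0218), and it was detected on 4 minimal and 8 extreme arrays.

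Interferon-stimulated genes gave 4 of the 21 falls, of which Mx2 and Oasl2 were also called in the fit of 16 arrays. Mx2, an interferon-induced dynamin-like GTPase, had the largest fall of the comparison, with values of 7.41, 8.59 and 9.19 in the minimal class and 5.48, 7.21 and 7.58 in the extreme class. The difference was 2.76-fold (−1.47 ± 0.36, adjusted p = 0.0495), and all 8 extreme rats lay below the minimal mean. Oasl2, a member of the oligoadenylate synthetase-like family, fell 1.66-fold (−0.73 ± 0.16, adjusted p = 0.0218), from 8.47, 9.04 and 9.47 to 7.82, 8.32 and 8.79. Stat2, the transcription factor that carries the type I interferon signal to the nucleus, had values of 6.17, 6.78 and 7.33 against 5.62, 6.00 and 6.54 (−0.70 ± 0.16, adjusted p = 0.039). Gbp2, an interferon-induced guanylate-binding protein gene, had values of 7.96, 8.14 and 8.44 against 7.00, 7.45 and 8.26 (−0.64 ± 0.15, adjusted p = 0.0472). For Oasl2 and Stat2, 4 of 8 extreme rats lay below the whole minimal range, and for Gbp2 7 did. In the fit of 16 arrays Stat2 and Gbp2 missed the threshold (adjusted p = 0.0558 and 0.0555).

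Most members of the interferon list were not called. Of 24 tested members, 4 were called lower, 0 higher and 20 were not called, against 0.223% of all probes called lower. At an unadjusted p below 0.05, 9 were lower and 1 was higher, against 7.23% and 5.04% of all probes. The median over the list was −0.06. With the 16 arrays alone the median over 19 members was −0.21, and −0.27 when these arrays were scaled to the 75th percentile. Oasl, a relative of Oasl2, differed by −0.68 ± 0.19 (adjusted p = 0.0867). The promoter windows of the called members Oasl2 and Gbp2 are shown because both held an interferon-stimulated response element, searched as GAAANNGAAA on both strands and printed in capitals. The Oasl2 window is chr12:47383136-47383435 on the minus strand and that of Gbp2 is chr2:234005477-234005776 on the plus strand, from RefSeq on GRCr8.
Oasl2: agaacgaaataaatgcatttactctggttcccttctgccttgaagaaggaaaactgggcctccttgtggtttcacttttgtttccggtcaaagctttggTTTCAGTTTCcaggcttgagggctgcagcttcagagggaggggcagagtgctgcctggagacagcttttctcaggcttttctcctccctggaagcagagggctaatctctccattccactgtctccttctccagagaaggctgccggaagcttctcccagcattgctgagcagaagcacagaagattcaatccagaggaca
Gbp2: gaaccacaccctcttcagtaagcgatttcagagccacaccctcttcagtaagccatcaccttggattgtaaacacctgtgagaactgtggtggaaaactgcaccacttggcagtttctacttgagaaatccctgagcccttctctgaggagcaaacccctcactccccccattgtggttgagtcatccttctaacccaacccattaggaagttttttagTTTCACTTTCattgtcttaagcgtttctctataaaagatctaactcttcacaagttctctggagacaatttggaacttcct
Both matches run on the reverse strand of the window, and they begin 151 bases before the start of Oasl2 and 31 before that of Gbp2. The element was present in 3.92% of all 33469 windows and in 3.06% of the 5875 windows of tested genes. The window of Stat2 did not hold it, and Mx2 had no window under that symbol. Among other named genes the element occurred in the windows of Vps41, Tap1 and Ncf1, with differences below 0. It also occurred in those of Per1 and Gzma, with differences above 0. A match of letters does not show that a factor binds there.

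The inflammatory gene Il1b and the myeloid receptor genes Sirpa and Cd302 fell, while Cd14 rose. Il1b, the gene of the inflammatory cytokine interleukin-1 beta, had values of 8.66, 8.85 and 9.88 in the minimal class and 7.16, 7.65 and 8.78 in the extreme class. It fell 2.31-fold (−1.21 ± 0.26, adjusted p = 0.0218), and 7 of 8 extreme rats lay below every minimal rat. Sirpa, an inhibitory receptor of myeloid cells that binds CD47, fell 1.67-fold (−0.74 ± 0.14, adjusted p = 0.0112), from 8.90, 9.13 and 9.93 to 8.11, 8.39 and 9.29. Cd302, a C-type lectin receptor of myeloid cells, had values of 6.42, 6.79 and 7.08 against 5.54, 6.02 and 6.63 (−0.78 ± 0.17, adjusted p = 0.0218). Of 18 tested inflammation and NF-kB genes, Cd14 was called higher, Il1b lower and 16 were not called. Of all probes, 0.117% were called higher and 0.223% lower. Sod2, the mitochondrial superoxide dismutase and an NF-kB target, had values of 9.13, 9.67 and 9.88 against 7.83, 8.63 and 9.39. It was not called in the fit of 46 arrays (SE 0.36, adjusted p = 0.223) and was called in that of 16 (−1.02 ± 0.18, adjusted p = 0.0141). Monocyte markers moved both ways, with Cd14 higher and Sirpa lower among 9 tested and a list median of 0.03.

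Btk, the kinase that carries B cell receptor and myeloid signals, fell 2.11-fold. Its values were 5.89, 6.41 and 6.95 in the minimal class and 4.54, 5.56 and 6.02 in the extreme class (−1.08 ± 0.21, adjusted p = 0.00967), and it was detected on 8 minimal and 5 extreme arrays. It was the 1 called member of 20 tested genes of B cell receptor signalling, whose median was −0.20, against 0.223% of all probes called lower. Syk and Plcg2, a kinase and a phospholipase of the same pathway, differed by −0.49 ± 0.16 (adjusted p = 0.139) and −0.40 ± 0.16 (adjusted p = 0.28). Swap70, which encodes a signalling protein of B cells and other leukocytes, fell by 0.79 on the log2 scale (SE 0.19, adjusted p = 0.039), from 6.98, 7.64 and 8.39 to 6.17, 6.88 and 7.34, and was not called in the fit of 16 arrays (adjusted p = 0.0605).

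None of the 11 tested genes of MHC class II antigen presentation was called. At an unadjusted p below 0.05, 6 were lower and 0 higher, against 7.23% and 5.04% of all probes, and the list median was −0.44. Ciita, the master regulator of class II transcription, had values of 5.11, 5.83 and 6.21 in the minimal class against 4.49, 4.98 and 5.19 in the extreme class. Its difference was −0.81 ± 0.21 (adjusted p = 0.0639), and it was called in the fit of 16 arrays (−0.85 ± 0.17, adjusted p = 0.0321). RT1-Ba, a class II alpha chain gene, ran from 9.40 to 10.63 and from 8.94 to 9.85 in the minimal and extreme class (−0.65 ± 0.19, adjusted p = 0.12). The invariant chain gene Cd74 differed by −0.56 ± 0.18 (adjusted p = 0.156) and the peptide loading gene RT1-DMa by −0.53 ± 0.17 (adjusted p = 0.157). With cell marker scores as covariates the difference was −0.55 for Ciita, −0.27 for RT1-Ba, −0.23 for Cd74 and −0.16 for RT1-DMa. For Ciita, RT1-Ba, Cd74 and RT1-DMa all 8 extreme rats lay below the minimal mean. Under other backgrounds and scalings the median ranged from −0.24 to −0.60. The list score ran from −0.12 to 0.64 in the minimal and from −0.44 to 0.00 in the extreme class.

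Among stress proteins, Ddit3 was called. It encodes CHOP, a transcription factor of the unfolded protein response, and its values were 8.39, 8.83 and 9.21 in the minimal class and 7.76, 8.07 and 8.47 in the extreme class (−0.72 ± 0.16, adjusted p = 0.0218). Of 18 tested genes of that response, 8 were lower and 0 higher at an unadjusted p below 0.05, against 7.23% and 5.04% of all probes. The list median was −0.19. The endoplasmic reticulum chaperone gene Hsp90b1 differed by −0.44 ± 0.12 (adjusted p = 0.0763). No heat shock gene of 15 tested was called in the fit of 46 arrays. The nearest were the HSP40 cochaperone genes Dnaja1 (−0.91 ± 0.23, adjusted p = 0.0574) and Dnajb1 (−0.55 ± 0.16, adjusted p = 0.12). Dnajb1 was called in the fit of 16 arrays (−0.56 ± 0.13, adjusted p = 0.0456). The peroxiredoxin gene Prdx5, whose product reduces peroxides, ran from 8.62 to 9.05 in the minimal class and from 7.94 to 8.56 in the extreme class. Its classes did not overlap, yet the difference of −0.46 ± 0.12 missed the threshold (adjusted p = 0.0784).

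The remaining falls named by the largest change were in genes of signalling and transport. Sav1, the scaffold of the Hippo kinases, had values of 6.50, 6.77 and 6.93 against 4.76, 5.88 and 6.85 (−0.87 ± 0.21, adjusted p = 0.0495). Spryd7 ran from 5.43 to 6.64 and from 4.34 to 5.90 (−0.82 ± 0.19, adjusted p = 0.039). Vps41, a subunit of the complex that tethers vesicles to lysosomes, ran from 5.95 to 6.63 and from 4.92 to 6.14 (−0.76 ± 0.16, adjusted p = 0.0218). Sav1 and Spryd7 were not called in the fit of 16 arrays (adjusted p = 0.0543 and 0.0647). Vps41 was the 1 called gene of 115 tested genes of vesicle traffic, against 0.223% of all probes called lower. None of the named called genes was below detection on all arrays of a class.

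Just outside the threshold, Mgst1, a microsomal glutathione transferase gene, differed by −0.60 ± 0.15 (adjusted p = 0.054). Cd82, a tetraspanin gene, ran from 8.25 to 10.92 in the minimal class and from 11.17 to 11.49 in the extreme class. The classes of Cd82 did not overlap, and its difference of 1.15 ± 0.29 had an adjusted p of 0.0543. Scd, a fatty acid desaturase gene, and Cklf, a chemokine-like gene, differed by −0.77 ± 0.19 (adjusted p = 0.0543) and −0.69 ± 0.17 (adjusted p = 0.0565). Without background correction Cd82 (1.07, adjusted p = 0.0471) and Cklf (−0.46, adjusted p = 0.0447) were called, and Mgst1 and Scd were not. Just inside the threshold, Fkbp5, Mx2 and Sav1 each had an adjusted p of 0.0495.

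**Figure D3:**
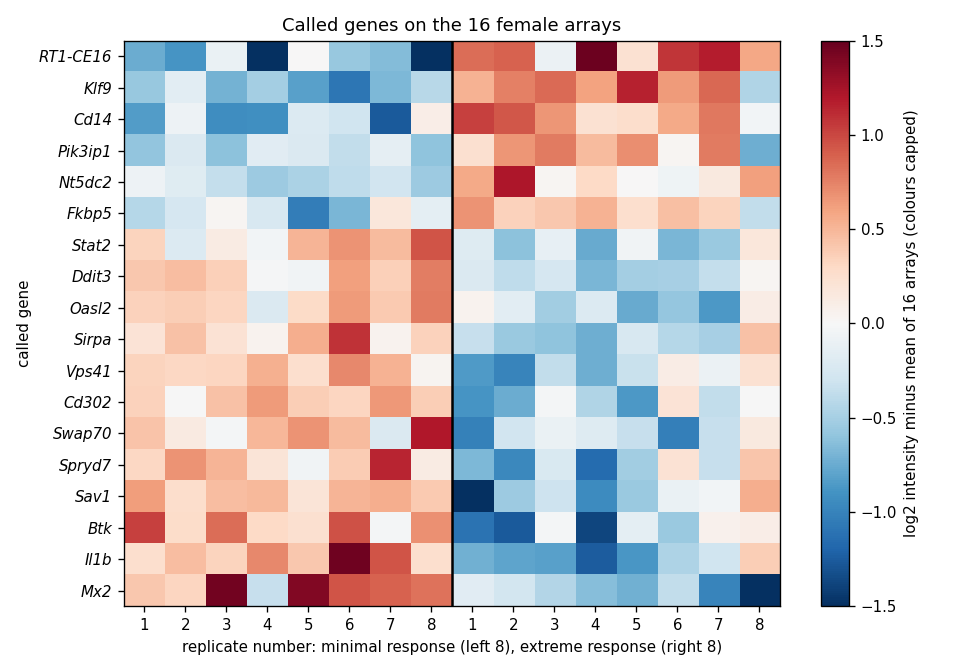
Called genes with the largest rises and falls (rows) on the 8 minimal and 8 extreme arrays (columns, by replicate number), as log2 intensity minus the mean of the 16 arrays, with colours that saturate at the ends of the scale. Extreme replicate 8, the rightmost column, has the colours of the minimal class in many rows.

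Extreme replicate 8, rat number 35, stood apart from its class. For 14 of the 18 called genes with the largest changes, it was the extreme array closest to the minimal class, and no other extreme array was closest for more than 2. Beside Klf9 and Fkbp5, its Sirpa value of 9.29 lay above the other extreme rats, of which the next was 8.61. Its Il1b value, 8.78, lay inside the minimal range that began at 8.66. Mx2 ran the other way, since its 5.48 was farther from the minimal class than that of any other rat. Without this array the fit of 46 arrays called 72 probes in place of 32, and the fit of 16 called 164 in place of 49. The difference was then 1.38 for Klf9 (adjusted p = 3.2e-05) and 0.74 for Fkbp5 (adjusted p = 0.00872), while Mx2 differed by −1.24 and was not called (adjusted p = 0.0679). This array was singled out because it lay closest to the minimal class for most of these genes. For genes such as Klf9 and Fkbp5, a larger difference without it follows from that choice and is no added support. The count of 32 became 18, 8, 49 and 13 without minimal replicate 5, 6, 7 and 8, and 18, 14 and 7 without extreme replicate 1, 2 and 4. Leaving out each remaining array gave 22 to 35. In the fit of 16 arrays, leaving out any array but extreme replicate 8 gave counts from 9, without extreme replicate 4, to 74, without minimal replicate 7.

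**Figure D4:**
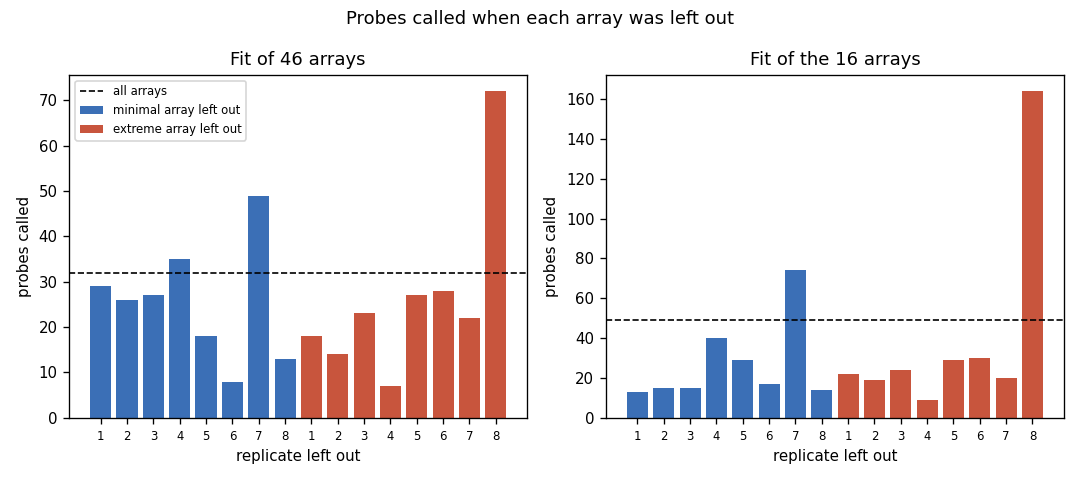
Number of called probes (y axis, from 0) when each array in turn was left out (x axis, replicate number), in the fit of 46 arrays (left panel) and of the 16 arrays (right panel). The dashed lines are the counts with no array left out, 32 and 49, and leaving out extreme replicate 8 gave 72 and 164.

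The dim arrays were mostly of the extreme class, so each difference was also taken without the 5 of them. All 19 named called genes kept their direction, and 0 of the 19 were called among the 4 extreme and 7 minimal arrays left. The genes were chosen on these same arrays, so a kept direction here and below is no independent test. Klf9 then differed by 1.16 (adjusted p = 0.0745), RT1-CE16 by 1.59 (adjusted p = 0.291), Oasl2 by −0.88 (adjusted p = 0.0856), Cd14 by 0.87 (adjusted p = 0.428) and Il1b by −0.87 (adjusted p = 0.629). Spryd7 shrank most in proportion, from −0.82 to −0.38, followed by Vps41, from −0.76 to −0.39. With brightness as a covariate and all arrays kept, 11 of the 19 were called, Klf9 among them (1.23, adjusted p = 0.00259). Under 75th percentile scaling all 19 also kept their direction and 0 were called, with Klf9 at 1.01 (adjusted p = 0.0968). Without background correction all 19 kept their direction, 16 were called, and 10 differences were smaller by over 1.5 times. These were RT1-CE16 (0.69), Cd14 (0.49), Nt5dc2 (0.25), Btk (−0.45), Sav1 (−0.39), Spryd7 (−0.32), Swap70 (−0.49), Cd302 (−0.38), Vps41 (−0.30) and Stat2 (−0.34).

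Markers of blood cells moved in modest steps with the classes, and no neutrophil, platelet, T cell, NK cell, B cell or erythroid marker was called in the fit of 46 arrays. In that of 16, 1 of 17 tested neutrophil markers, Cxcr2 (−0.73 ± 0.17, adjusted p = 0.0429), was called lower. So were 2 of 14 platelet markers, F2rl2 (−1.04 ± 0.24, adjusted p = 0.0429) and Alox12 (adjusted p = 0.0382), against 0.476% of all probes in that fit. In the fit of 46 arrays, neutrophil markers had a median difference of −0.23 over 20 tested genes. At an unadjusted p below 0.05, 5 of them were lower and 0 higher, against 7.23% and 5.04% of all probes. Their mean score ran from −0.17 to 0.45 in the minimal and from −0.41 to 0.11 in the extreme class. Ncf1, a subunit of the neutrophil oxidase, differed by −0.57 ± 0.15 (adjusted p = 0.0755), and Cxcr2, a neutrophil chemokine receptor, by −0.70 ± 0.21 (adjusted p = 0.12). Platelet markers had a median of −0.23 over 15 genes and scores from −0.28 to 0.53 and from −0.52 to 0.22. The platelet receptor gene F2rl2 differed by −1.02 ± 0.32 (adjusted p = 0.139) and the platelet chemokine gene Ppbp by −0.81 ± 0.33 (adjusted p = 0.298).

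T cell, NK cell and erythroid markers had medians above 0 and B cell markers a median below 0. T cell markers had a median of 0.18 over 16 genes, which was −0.02 under 75th percentile scaling, and scores from −0.33 to 0.20 in the minimal and from −0.23 to 0.28 in the extreme class. Cd3d and Cd8b, subunits of the T cell receptor complex and of its coreceptor, differed by 0.33 ± 0.13 (adjusted p = 0.254) and 0.37 ± 0.13 (adjusted p = 0.188). Markers of NK and cytotoxic cells had a median of 0.24 over 9 genes, with the granzyme gene Gzma at 0.64 ± 0.21 (adjusted p = 0.165). B cell markers had a median of −0.13 over 13 genes. Erythroid markers had a median of 0.13 over 22 genes, with scores from −0.43 to 0.18 and from −0.09 to 0.23, and Car1, a red cell carbonic anhydrase, differed by 0.91 ± 0.27 (adjusted p = 0.12). With the neutrophil, T cell, B cell, platelet and erythroid scores as covariates, 4 probes were called, Klf9 (1.23, adjusted p = 0.00344) and Cd14 (1.33, adjusted p = 0.00344) among them. In that fit Il1b differed by −1.26 (adjusted p = 0.0611) and Mx2 by −1.08 (adjusted p = 0.34). The differences of some myeloid and platelet genes became smaller, with Ncf1 at −0.28 in place of −0.57 and Fcnb at −0.31 in place of −0.74. Likewise Ppbp was at −0.41 in place of −0.81 and Alox12 at −0.27 in place of −0.70. Others barely moved, with Cxcr2 at −0.67 and Slfn4 at −1.29. Ncf1, Cxcr2, Ppbp and Alox12 are themselves members of these scores, so for them the adjustment removes part of their own difference. In that fit 2 of the 19 named called genes kept their call. Skeletal muscle marker scores, which were not among the covariates, ran from −1.30 to 0.98 in the minimal and from −0.85 to 0.79 in the extreme class. The part of cell makeup in the differences was otherwise not tested.

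**Figure D5:**
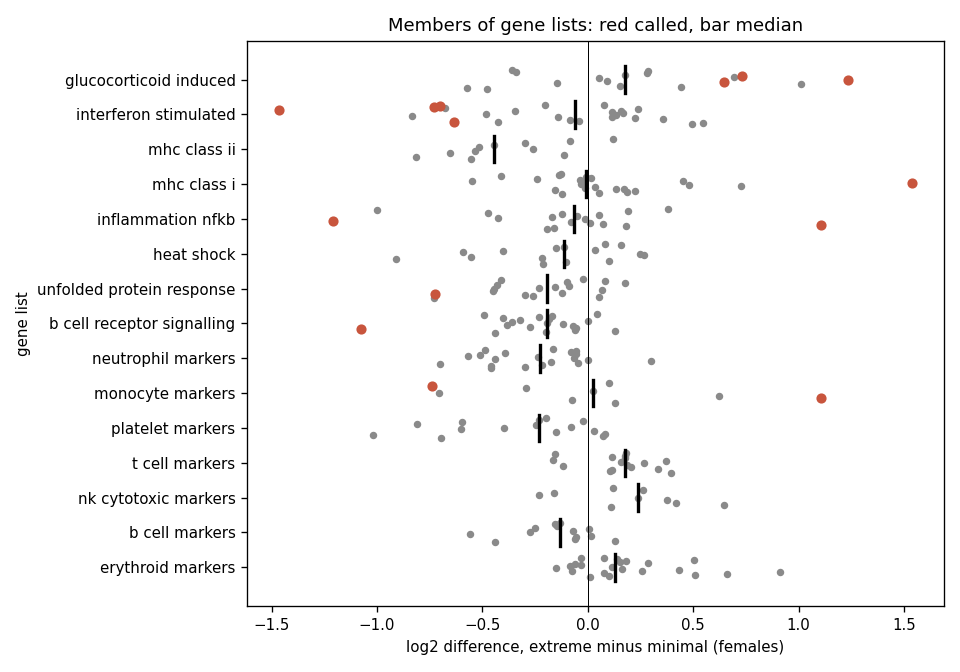
Log2 difference between extreme and minimal females (x axis) for each tested member of 15 gene lists (y axis). Points are genes, red where called, and black bars are list medians, which run from −0.44 for MHC class II to 0.24 for NK and cytotoxic markers.

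The fit of the 16 arrays alone called 30 probes that the larger fit did not. Slfn4, a gene of the schlafen family expressed in myeloid cells, had values of 8.82, 9.33 and 9.77 in the minimal class and 7.56, 7.92 and 9.07 in the extreme class in this fit (−1.32 ± 0.19, adjusted p = 0.00357). In the fit of 46 arrays its difference was −1.30 ± 0.40 (adjusted p = 0.127). Pkm, the pyruvate kinase gene, ran from 5.48 to 6.01 against 4.71 to 5.42 (−0.76 ± 0.13, adjusted p = 0.0141), and Nck2, an adaptor of receptor kinases, from 8.68 to 9.49 against 7.54 to 8.65 (−0.96 ± 0.17, adjusted p = 0.0141). Neither gene had overlapping classes. Gsn, the actin-severing gelsolin, fell by 0.90 on the log2 scale (SE 0.17, adjusted p = 0.0176), Fcnb, a myeloid ficolin, by 0.76 (SE 0.16, adjusted p = 0.0321) and Hpse, the heparanase gene, by 0.73 (SE 0.16, adjusted p = 0.0382). The platelet 12-lipoxygenase gene Alox12 fell by 0.70 (SE 0.15, adjusted p = 0.0382). Slfn4, Pkm, Nck2, Gsn, Fcnb and Hpse were chosen after their values were seen. Without any 1 array, Slfn4, Pkm and Nck2 were called in 16 of 16 such fits of the smaller set, as were Klf9, RT1-CE16, Cd14, Il1b, Mx2 and Sod2. In the fit of 46 arrays the same omissions left Klf9 and Cd14 called in 16 of 16, RT1-CE16 in 14, Il1b in 13, Pik3ip1 in 4, Fkbp5 in 3, Mx2 in 1 and Sod2, Slfn4, Pkm and Nck2 in 0.

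The same class difference was taken in the 16 exposed males, which share no array with the females. Female and male arrays carry different series of rat numbers and separate runs of sample numbers, so sex cannot be told apart from these. Of 9416 probes, 13 were called in males (0.138%), and 0 of these were called in females. The difference between the sexes passed for 3 probes (0.0319%), at Oasl2, Oasl and Upp1, and 767 probes (8.15%) had an unadjusted p below 0.05. Oasl2 differed by −0.73 ± 0.16 between the classes in females and by 0.54 ± 0.16 in males, a gap of −1.27 ± 0.23 (adjusted p = 0.0105). Oasl differed by −0.68 in females and 0.64 in males (gap −1.32 ± 0.26, adjusted p = 0.0329). Upp1, the uridine phosphorylase gene, differed by −0.52 in females and 0.55 in males (gap −1.07 ± 0.22, adjusted p = 0.0329). None of these 3 genes was called in males alone, and Oasl and Upp1 were not called in females alone. The next in rank were Ppcs, a gene of coenzyme A synthesis (gap 0.97 ± 0.21, adjusted p = 0.0611), and Pik3ip1 (gap 1.10 ± 0.25, adjusted p = 0.108).

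For the other leading genes the gap between the sexes missed the threshold. The Klf9 difference was 1.24 in females and 0.21 in males (gap 1.03 ± 0.28, adjusted p = 0.259). That of Fkbp5 was 0.65 and −0.08 (gap 0.73 ± 0.22, adjusted p = 0.3). Cd14 differed by 1.11 and 0.01 (gap 1.09 ± 0.31, adjusted p = 0.285) and Mx2 by −1.47 and 0.25 (gap −1.72 ± 0.51, adjusted p = 0.291). Of the 17 glucocorticoid-induced genes, 0 were higher and 7 lower at an unadjusted p below 0.05 in males. Over all 9416 probes, 608 were higher and 579 lower by that measure in males. The medians of this list were 0.18 in females and −0.29 in males. Other lists went both ways. Medians had the same sign in females and males for the unfolded protein response (−0.19 and −0.16), platelet (−0.23 and −0.31) and erythroid markers (0.13 and 0.25). Signs were opposite for MHC class II (−0.44 and 0.09), the interferon list (−0.06 and 0.10) and neutrophil markers (−0.23 and 0.01). T cell, NK cell and B cell markers also had opposite signs. No gap between list medians was tested. Sav1 differed by −0.87 in females and −0.77 in males (gap −0.10 ± 0.30, adjusted p = 0.963), with a male adjusted p of 0.0936.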

How the data were processed

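RNA of whole blood was measured on 1 bead array per rat. The authors deposited 1 non-normalized intensity and 1 detection p-value per probe and array, per the file headers, and a table of log2 values. The deposited log2 values matched quantile-normalized log2 intensities without background correction to within 5e-09, with a column median of 6.59. Scanner software and chip positions were not used. No aligner or build applies to the probes.

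Symbols came from the platform annotation (13793 of 22523 probes with 1 symbol, 8730 with none), of which 13752 matched RefSeq by Entrez identifier. The probe with the highest mean stood for each of 106 symbols with several tested probes. The array of female control replicate 2 (highest intensity 83.2) was left out. Intensities were corrected with normexp of limma 3.58.1 (R 4.3.3; negative controls inferred from detection p, offset 16), quantile normalized and put on the log2 scale. The offset shrinks differences of probes near background. Group means were fitted with lmFit and eBayes (40 residual degrees of freedom), and two-sided p-values were adjusted by Benjamini and Hochberg over 9416 probes. The fit of 16 arrays had 14 residual degrees of freedom. Every adjusted p is from limma. The number of arrays limits the precision.

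Named genes were the called genes with the 12 largest rises and 12 largest falls, the 10 nearest outside the threshold, up to 4 members of each gene list by p, 6 glucocorticoid genes and the 5 smallest p of the sex difference. A smaller number is printed. The comparison, lists and rules were chosen with earlier results of these data known. A list's score on an array is the mean of its members' centred log2 values. Alternatives changed the arrays, background, scaling, filter, weights and covariates. Replicate numbers follow the order of the sample numbers within each group. They did not pair the arrays, since 0 of 8 same-number correlations passed 0.1 (−0.293 to −0.00895). Of 66 genes followed, 56 had promoter windows.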

Additional observations from a re-analysis of the deposited data

Results flagged for a closer look

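Of 132 groups of 8 arrays checked, 9 held a value that lay farther from their class than Dixon's 95% critical value of 0.526 allows, and chance gives such a value in about 1 of 20 groups. Of these, 6 belonged to extreme replicate 8. They were Klf9 at 7.11 (nearest other extreme rat 8.09), Fkbp5 at 7.47 (8.09), Mx2 at 5.48 (6.76), Sirpa at 9.29 (8.61), Dnaja1 at 9.24 (8.39) and Slfn4 at 8.89 (7.95), all as log2 intensity.

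The other values were Sirpa in minimal replicate 6 at 9.93 (nearest 9.39), Zcrb1 in extreme replicate 1 at 7.45 (7.24) and Ncf1 in extreme replicate 6 at 8.46 (8.85). Zcrb1, an RNA-binding protein gene of the minor spliceosome, differed by 0.50 between the classes (adjusted p = 0.0574).

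The class difference was unlike in female and male arrays by a test of the gap itself for Oasl2 (−1.27), Oasl (−1.32) and Upp1 (−1.07). Each value is the female minus the male log2 difference, and sex cannot be told apart from the run of sample numbers.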

How the results depend on the processing

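The count of called probes depended strongly on the arrays and the scaling. None of the 66 genes followed reversed in any of 52 settings. These genes were mostly chosen by their p or change in the main fit, and the settings reuse its arrays. A kept direction is therefore no independent test of it. In place of 32, the count was 49 with the 16 arrays alone, 5 with female arrays only, 53 with an offset of 50, 11 with no filter, 96 with array weights, 19 with brightness as a covariate and 4 with cell marker scores as covariates. It was 75 without 4 female control arrays (replicates 1, 3, 4 and 5) and 4 without the 5 dim arrays, settings chosen after seeing the data. limma called 0 with all 47 arrays (562 at an unadjusted p below 0.05) and 0 with scaling to the 75th percentile (1123). With the replicate number as a block it was 13, although the numbers did not pair the arrays. Leaving out 1 array gave 7 to 72, with the arrays that moved it by over 1.5 times being minimal replicates 5 (18), 6 (8), 7 (49) and 8 (13) and extreme replicates 1 (18), 2 (14), 4 (7) and 8 (72).

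In the fit of 16 arrays, in place of 49, the count was 4 with 75th percentile scaling, 14 with the brightness covariate and 0 without the 5 dim arrays (847 at an unadjusted p below 0.05). Leaving out 1 array gave 9 to 164. It was 13, 15, 15, 29, 17, 74 and 14 without minimal replicates 1, 2, 3, 5, 6, 7 and 8, and 22, 19, 24, 9, 29, 30, 20 and 164 without extreme replicates 1 to 8.

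The sex difference had 3 called probes. It had 7 with exposed arrays only, 12 with array weights, 1 with no filter, 0 with all 47 arrays (355 at an unadjusted p below 0.05), 0 with 75th percentile scaling (1030) and 0 with cell marker covariates (700). Leaving out 1 array gave 1 to 8, with 8 without extreme replicate 8 and 1 without minimal replicate 6, 7 or 8 or extreme replicate 2, 3, 4, 5 or 6. The replicate block gave 2.

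The causes of these moves were not tested. Dim arrays held fewer probes above background, and Klf9 and Cd14 were called in all 16 fits that left out 1 array, of 46 or of 16. Btk and Sirpa were called in all 16 such fits of the 46 arrays, but in 7 and 3 of those of the 16.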
